A study of Rattus norvegicus with 12 samples.

Results

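The 7 genes described here are markers of microglia: Cx3cr1, Csf1r, Trem2, Tyrobp, Ptprc, Aif1 and Cd68. They are all the non-control probes on the array that carry one of these 7 names, with letter case and the ending "predicted" ignored, out of 35608 genes on the array. The rule found 11 probes, each spotted 1 time on an array: 4 of the genes have 1 probe, 2 have 2 and 1 has 3.

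Microglia are the resident macrophages of the brain. They depend on the growth factor receptor CSF1R for survival, and neurons hold them in check through fractalkine, the ligand of CX3CR1. The lipid-sensing receptor TREM2 signals through its adaptor TYROBP (DAP12), while IBA1, made from Aif1, and the endosomal protein CD68 are the stains most used to count these cells and to read their phagocytic state. In the striatum, microglia take up debris of dopamine axons after these degenerate.

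RNA was measured in dorsal striatum tissue of 12 male rats, 1 rat per array. All 12 carried a lesion of the left substantia nigra pars compacta made with 9 µg of the dopamine neuron toxin 6-hydroxydopamine in 4.5 µL. The 6-OHDA group had this lesion alone. HFS rats carried the lesion and had 5 days of stimulation of the subthalamic nucleus, with 60 µA pulses that lasted 80 µs and came at a high frequency, 130 Hz. Rats of the DOPA group were given 25 mg/kg L-DOPA with 12.5 mg/kg benserazide, which blocks decarboxylation outside the brain, in 2 injections per day at an interval of 12 h for 19 days. The DOPA/HFS group received both. Stimulated rats, by the study's methods, also had anaesthesia and surgery to place an electrode, which is not described for the lesion-only and DOPA rats, so surgery and stimulation cannot be told apart. Each group held 3 rats, and the ages of the rats are not in the labels. Tissue of unlesioned rats was not used here, so no value sets the lesion itself against a healthy striatum. All values are of whole tissue, in which fewer microglia and less RNA per cell cannot be told apart.

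The 12 arrays sat on 3 slides, with 1 array of each group per slide, and arrays are numbered by slide. Position on the slide goes with the group, so an effect of position and an effect of treatment cannot be told apart. Between 50.5% and 63.2% of spots were well above background, by the scanner software's own test. The lowest of these shares was on DOPA 3 and the highest on HFS 2. The array DOPA/HFS 3 had 4175 outlier spots, against 2 to 25 on the other arrays, and 238 saturated spots, against 63 to 105. Outlier spots were left out. The array 6-OHDA 2 had the lowest 75th percentile of the log2 signal before normalization, 8.70, and DOPA/HFS 3 the highest, 9.99. On the first principal component of all genes, which held 30.6% of the variance, 6-OHDA 2 stood at -67 and DOPA 2 at -32.4, while the other arrays lay between -14.3 and 38.7. The next lowest, at -14.3, was DOPA/HFS 2, so the 3 lowest arrays were all of slide 2. HFS 2, the other array of that slide, stood at 3.28. For the members other than Ptprc, differences from 6-OHDA and the interaction are also given without 6-OHDA 2. For the genes of other lists they are not.

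The tissue label was checked against 10 markers of striatal projection neurons, among them Drd1, Drd2, Penk, Tac1 and Ppp1r1b, and all 10 were well above background on enough arrays to be tested. The name microglia was checked probe by probe. By the brightest of its probes, 6 of the 7 genes were well above background on all 12 arrays. The exception was Ptprc, well above background on 5 of 12, which passed the filter only through HFS and DOPA/HFS arrays. Of the 11 probes, 8 passed the filter of at least 40% of arrays well above background. The 3 that did not were the second Csf1r probe, A_44_P226109, and the Ptprc probes A_44_P236144 and A_44_P414258, with 0, 0 and 2 of 12 arrays. All 7 genes were tested, among 20462 genes.

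Cx3cr1 encodes the microglial receptor for fractalkine. Its probe A_44_P372587 gave a log2 signal of 8.08, 7.33 and 8.07 on the 6-OHDA arrays, 7.75, 7.94 and 7.94 on the HFS arrays, 7.76, 8.00 and 8.04 on the DOPA arrays, and 8.16, 7.89 and 7.88 on the DOPA/HFS arrays. The 4 groups overlap, and 6-OHDA 2 stands below all other arrays. In order, the group means were 7.83 ± 0.43 for 6-OHDA, 7.88 ± 0.11 for HFS, 7.93 ± 0.15 for DOPA and 7.98 ± 0.16 for DOPA/HFS (SD, n = 3 in each), and no neighbours in this order differ beyond their spread.

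Csf1r encodes the receptor for the growth factors CSF1 and IL34. Its probe A_44_P257582 read 10.51, 9.95 and 11.07 in 6-OHDA, 10.30, 10.99 and 11.13 in HFS, 10.66, 10.77 and 10.96 in DOPA, and 11.06, 10.48 and 10.78 in DOPA/HFS. The groups overlap here too, and the lowest value is again that of 6-OHDA 2. The means in order were 10.51 ± 0.56 for 6-OHDA, 10.77 ± 0.29 for DOPA/HFS, 10.80 ± 0.15 for DOPA and 10.81 ± 0.45 for HFS (SD, n = 3), with neighbours closer than their spread. Over the 12 arrays Csf1r covered 1.18 log2 units, and its SD within groups, 0.39, lay at percentile 73 of all genes tested.

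A list of 5 ligands that act on microglia holds the ligands of these receptors, Csf1, Il34 and Cx3cl1, and 2 of other receptors, Csf2 and Tgfb1. Of the 5, 4 were on the array and 3 were tested, Csf1, Cx3cl1 and Tgfb1, while Csf2 did not pass the filter. Cx3cl1, the gene of fractalkine, differed from 6-OHDA by log2 0.06, 0.02 and 0.01 in HFS, DOPA and DOPA/HFS (SE 0.11). Csf1 gave 9.00, 9.17 and 8.97 in 6-OHDA against 8.88, 8.65 and 8.08 in DOPA. The 3 DOPA arrays lie below the 3 6-OHDA arrays for Csf1, with a log2 difference of -0.51 (SE 0.34) that did not pass the test across all genes (adjusted p = 1). Among all genes, 3.11% were lower without overlap in DOPA than in 6-OHDA.

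Trem2 encodes the lipid-sensing receptor of phagocytic microglia. Its probe A_42_P512838 read 12.26, 12.53 and 12.06 in 6-OHDA, 12.22, 12.05 and 11.95 in HFS, 12.05, 12.27 and 11.94 in DOPA, and 11.82, 12.13 and 12.00 in DOPA/HFS. On each of the 3 slides the 6-OHDA array was above the HFS, the DOPA and the DOPA/HFS array, while across slides the groups overlap. The highest value is that of 6-OHDA 2. The means in order were 12.28 ± 0.23 for 6-OHDA, 12.09 ± 0.17 for DOPA, 12.08 ± 0.14 for HFS and 11.98 ± 0.15 for DOPA/HFS (SD, n = 3), and each step is within the spread.

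Tyrobp encodes the adaptor that carries the TREM2 signal to the kinase SYK. By its brighter probe, A_42_P807697, it read 12.03, 12.25 and 11.86 in 6-OHDA, 11.98, 11.93 and 11.87 in HFS, 11.69, 12.12 and 11.89 in DOPA, and 12.07, 11.92 and 12.03 in DOPA/HFS. These 12 values cover 0.56 log2 units, and the SD within groups, 0.15, lay at percentile 11.8 of all genes. The means in order were 12.05 ± 0.19 for 6-OHDA, 12.01 ± 0.08 for DOPA/HFS, 11.93 ± 0.05 for HFS and 11.90 ± 0.21 for DOPA (SD, n = 3), and neighbours in this order overlap. A second Tyrobp probe, A_44_P526676, was well above background on 9 of 12 arrays and had r = 0.49 with the other (permutation p = 0.11, adjusted p = 0.55 over the 5 probe pairs) and rho = 0.41 (permutation p = 0.191). The other probe pairs each held a probe that failed the filter. Their r was 0.25 for Csf1r and -0.20, 0.18 and -0.26 for Ptprc (permutation test, adjusted p = 0.616 for each).

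Of 14 genes listed for signalling through TYROBP and its inhibitory counterparts, 12 were on the array and 10 were tested. None of the 10 was called. None had groups without overlap against 6-OHDA, with 8 of the 10 complete in DOPA/HFS. Among all genes, 2.79%, 3.15% and 1.74% were higher without overlap in HFS, DOPA and DOPA/HFS, and 2.33%, 3.11% and 2.44% lower. The median log2 differences of the 10 in HFS, DOPA and DOPA/HFS were 0.15, 0.04 and 0.16, beside 0.01, -0.01 and -0.01 for all genes. Syk itself stood at 0.22, -0.02 and 0.19 (SE 0.28). Plcg2, the phospholipase that acts after SYK, stood at -0.32 (SE 0.26), 0.15 (SE 0.26) and -0.09 (SE 0.29).

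Ptprc encodes CD45, the tyrosine phosphatase of white blood cells, which resting microglia carry at a low level. Its probe A_44_P135213 read 4.72, 3.83 and 5.09 in 6-OHDA, 5.32, 5.20 and 5.07 in HFS, 4.94, 4.97 and 4.60 in DOPA, and 4.95, 5.23 and 5.19 in DOPA/HFS. It was well above background on 3 of 3 HFS arrays, on DOPA/HFS 1 and 2, and on 0 arrays of 6-OHDA and of DOPA. The lowest log2 signal that counted as well above background differed between arrays: 4.61, 5.12 and 5.30 in 6-OHDA, 4.45, 4.03 and 4.12 in HFS, 4.73, 4.71 and 5.71 in DOPA, and 4.22, 4.22 and 3.60 in DOPA/HFS. A signal of 5.07 on HFS 3 counted and one of 5.09 on 6-OHDA 3 did not. That lowest level alone does not decide the call. Ptprc lay above it and did not count on 6-OHDA 1 (4.72), DOPA 1 (4.94), DOPA 2 (4.97) and DOPA/HFS 3 (5.19). The means in order were 4.55 ± 0.65 for 6-OHDA, 4.83 ± 0.21 for DOPA, 5.12 ± 0.15 for DOPA/HFS and 5.20 ± 0.12 for HFS (SD, n = 3), and neighbours in this order overlap. No difference or fold from 6-OHDA or DOPA is given for Ptprc, since no array of these groups was well above background.

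Of the other measures, the share of spots well above background moved with the groups in which Ptprc was read. The marker lists given after it did not all do so. Choroid plexus sums in DOPA/HFS overlapped those in 6-OHDA, and lymphocyte sums were highest on 6-OHDA 2 and DOPA 2. The share of spots well above background was 58.9%, 56.2% and 53.8% in 6-OHDA, 60.3%, 63.2% and 62.7% in HFS, 58%, 57.9% and 50.5% in DOPA, and 62.8%, 62.1% and 60% in DOPA/HFS. Of 10 choroid plexus markers, 9 were tested, and their median log2 difference between HFS and 6-OHDA was 2.28, or 2.23 with genes not well above background in a group at their bound, with 5 of 9 higher without overlap, beside 2.79% of all genes. By limma 0 of the 9 were called, with 9 at an unadjusted p under 0.05. Kcnj13, Clic6 and Slc4a5 had 0 of 3 6-OHDA arrays well above background and passed the filter only with the HFS arrays. The filter thus favoured a higher value in HFS for them. Kcnj13 and Clic6 are in both counts, and Slc4a5, whose groups overlap, only in that of unadjusted p. The medians in DOPA and DOPA/HFS were 0.38 and 0.10, or 0 in both at the bounds. The marker Kl did not pass the filter. Their summed intensity was 3660, 3640 and 6370 in 6-OHDA, 96400, 10100 and 57300 in HFS, 3720, 5500 and 20600 in DOPA, and 5760, 4640 and 4140 in DOPA/HFS. Ttr was the brightest of them on HFS 1, HFS 3 and DOPA 3, and Enpp2 on the other arrays. Ttr, which encodes the thyroid hormone carrier transthyretin, read 16.30, 11.86 and 15.28 in HFS against 6.23, 6.59 and 5.80 in 6-OHDA (log2 difference 8.27, SE 2.51, adjusted p = 0.998). Kcnj13, a potassium channel of that epithelium, was well above background on 0 of 3 6-OHDA arrays and at least 9.13-fold higher in HFS. In DOPA/HFS, where Ptprc was also read above background on 2 arrays, Sostdc1 was 1 of 7 complete choroid plexus genes higher without overlap (log2 difference 0.69, SE 1.26), beside 1.74% of all genes. Of 14 lymphocyte markers on the array, which share CD45 with microglia, 3 passed the filter, Cd3d, Cd8b and Nkg7, and Cd3e, Cd4, Cd8a and Ms4a1 were among the 11 that did not. The summed intensity of the 3 was 283, 619 and 247 in 6-OHDA, 331, 407 and 270 in HFS, 281, 613 and 238 in DOPA, and 351, 463 and 245 in DOPA/HFS, with Cd3d the brightest. In DOPA/HFS 2 of these 3 and 7 of the 9 choroid plexus genes were complete, so sums there can lack genes whose spots were outliers. Of 9 monocyte and granulocyte markers on the array, 1 passed, Plac8, and the 8 others, Ccr2, Ly6c, Lyz and S100a8 among them, did not. Plac8 had an intensity of 49.2, 44.7 and 61.1 in 6-OHDA, 51.9, 79.6 and 49.9 in HFS, 50.3, 46.4 and 78.2 in DOPA, and 110, 195 and 58.9 in DOPA/HFS. It was brightest on DOPA/HFS 1 and 2, the DOPA/HFS arrays with Ptprc well above background, and its log2 difference of 1.08 (SE 0.38) from 6-OHDA was not called (adjusted p = 1). The part of these cells and of the background in the Ptprc values was not tested.

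Aif1 encodes IBA1, an actin-bundling protein of macrophages. Its probe A_44_P421534 read 12.92, 12.86 and 12.51 in 6-OHDA, 12.89, 12.49 and 12.37 in HFS, 12.59, 12.87 and 12.73 in DOPA, and 12.38, 13.14 and 12.90 in DOPA/HFS. The 4 groups overlap, and DOPA/HFS holds the highest value. On each of the 3 slides the HFS array was below the 6-OHDA array, by log2 differences of -0.03, -0.37 and -0.14. The means in order were 12.58 ± 0.27 for HFS, 12.73 ± 0.14 for DOPA, 12.77 ± 0.22 for 6-OHDA and 12.81 ± 0.39 for DOPA/HFS (SD, n = 3), each within the spread of the next.

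Cd68 encodes a glycoprotein of late endosomes and lysosomes that is abundant in phagocytes. Its probe A_44_P1038296 read 7.39, 7.87 and 7.50 in 6-OHDA, 7.30, 7.35 and 7.35 in HFS, 7.28, 7.96 and 7.52 in DOPA, and 7.52 and 7.49 on the first 2 DOPA/HFS arrays; on DOPA/HFS 3 its spot was an outlier and was left out. The 3 HFS arrays lie below the 3 6-OHDA arrays. The means in order were 7.33 ± 0.03 for HFS, 7.51 ± 0.02 for DOPA/HFS (SD, n = 2), 7.59 ± 0.34 for DOPA and 7.59 ± 0.25 for 6-OHDA (SD, n = 3). The step from HFS to DOPA/HFS exceeds the spread of these groups, with 2 arrays in the latter, and the other steps do not.

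Other genes of the lysosome were measured beside Cd68: 14 were listed, 13 were on the array, and all 13 were tested. In HFS, where Cd68 lay lowest, 2 of the 13 were higher than in 6-OHDA without overlap, beside 2.79% of all genes. These were Lamp2, a lysosomal membrane protein, with a log2 difference of 0.46 (SE 0.14), and Man2b1, the lysosomal alpha-mannosidase, with 0.31 (SE 0.14). Ctsb, the protease cathepsin B, differed by -0.21 (SE 0.19) in DOPA, and Npc2, a cholesterol carrier, by -0.21 (SE 0.16) in DOPA/HFS, both lower without overlap, beside 3.11% and 2.44% of all genes. None passed the test across all genes, and the median of the 13 was 0.09, 0.10 and 0.06 in HFS, DOPA and DOPA/HFS.

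**Figure D1:**
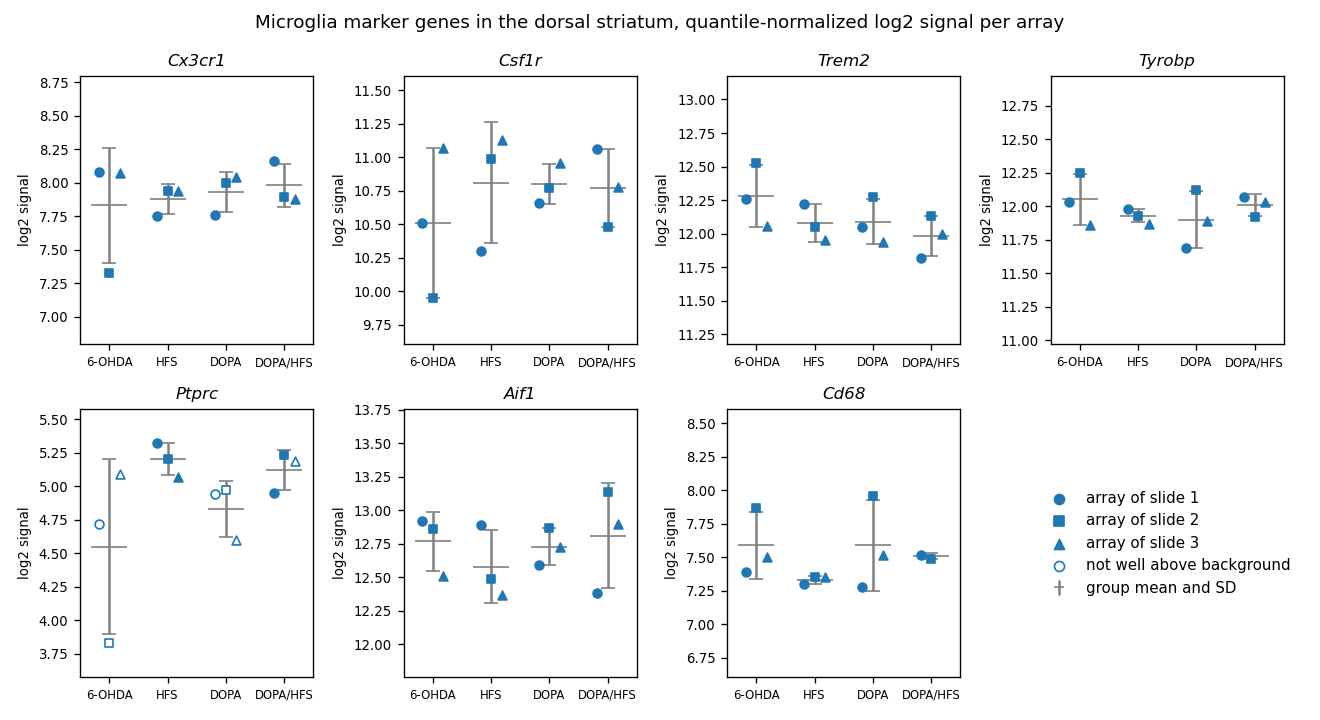
Log2 signal (vertical axis, quantile normalized) of the 7 microglia marker genes by their brightest passing probe on each of the 12 arrays, by group; points are single arrays, shaped by slide and open where not well above background, and horizontal bars with error bars are the group mean and SD (n = 3, and n = 2 for Cd68 in DOPA/HFS). For Cd68 the HFS arrays, 7.30 to 7.35, lie below the 6-OHDA arrays, 7.39 to 7.87, and below the DOPA/HFS arrays, 7.49 and 7.52; the points of Ptprc in 6-OHDA and DOPA are all open.

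The comparison of HFS with 6-OHDA asks what stimulation, with the electrode surgery, did to these genes in the lesioned striatum. None of the 7 passed the test: limma called 0 of 7, as it called 0% of the 20462 genes, of which 479 had an unadjusted p under 0.05. Ptprc is left out of the values that follow, since it passed the filter only through HFS and DOPA/HFS arrays. Csf1r differed by 0.30 on the log2 scale (SE 0.29, 95% interval -0.35 to 0.95) and Cx3cr1 by 0.05 (SE 0.20, interval -0.40 to 0.50). Trem2 differed by -0.21 (SE 0.16, interval -0.57 to 0.15), Aif1 by -0.18 (SE 0.22, interval -0.66 to 0.30) and Tyrobp by -0.12 (SE 0.15, interval -0.45 to 0.21). Cd68 differed by -0.25 (SE 0.19, interval -0.68 to 0.18). It was the 1 of 7 whose groups did not overlap, lower in HFS, beside 2.33% of all genes lower and 2.79% higher. Its two-sided exact permutation p was 0.1, the smallest that 3 arrays against 3 can give. Without 6-OHDA 2 the difference was 0.02 for Csf1r, -0.20 for Cx3cr1, -0.08 for Trem2, -0.02 for Tyrobp, -0.13 for Aif1 and -0.11 for Cd68.

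The comparison of DOPA with 6-OHDA asks the same of L-DOPA. Again limma called 0 of 7 members, beside 0.00489% of all genes, which is 1 gene, Igsf5 (log2 difference 1.89, SE 0.22, adjusted p = 0.0612), and 530 genes had an unadjusted p under 0.05. Csf1r differed by 0.29 (SE 0.29, interval -0.36 to 0.94), Cx3cr1 by 0.11 (SE 0.20, interval -0.34 to 0.55), and Trem2 by -0.20 (SE 0.16, interval -0.56 to 0.16). Tyrobp differed by -0.15 (SE 0.15, interval -0.48 to 0.19), Aif1 by -0.04 (SE 0.22, interval -0.52 to 0.44) and Cd68 by 0.00 (SE 0.19, interval -0.43 to 0.43). Ptprc was not well above background in either group. None of the 7 had groups without overlap, beside 3.15% of all genes higher and 3.11% lower. Without 6-OHDA 2 the difference was 0.01 for Csf1r, -0.14 for Cx3cr1, -0.08 for Trem2, -0.05 for Tyrobp, 0.01 for Aif1 and 0.15 for Cd68, and as the mean of its probes Tyrobp stood at 0.10.

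The comparison of DOPA/HFS with 6-OHDA asks about the treatments together. The count called by limma was 0 of 7, beside 0% of all genes, with 565 genes at an unadjusted p under 0.05. Trem2 had a difference of -0.30 (SE 0.16, interval -0.66 to 0.06), lower on 3 of 3 slides, and an exact permutation p of 0.2. Ptprc was well above background on 2 of 3 DOPA/HFS arrays and 0 of 3 6-OHDA arrays. Csf1r differed by 0.27 (SE 0.29, interval -0.38 to 0.91), Cx3cr1 by 0.15 (SE 0.20, interval -0.30 to 0.60), Aif1 by 0.04 (SE 0.22), Tyrobp by -0.04 (SE 0.15) and Cd68, with 2 DOPA/HFS arrays, by -0.08 (SE 0.22). None of the 6 complete members had groups without overlap, beside 1.74% of all genes higher and 2.44% lower. Without 6-OHDA 2 the difference was -0.18 for Trem2, -0.01 for Csf1r, -0.10 for Cx3cr1, 0.06 for Tyrobp, 0.09 for Aif1 and 0.06 for Cd68, and with outlier spots kept Cd68 stood at 0.41. The 3 comparisons share the 6-OHDA arrays, so their values are not independent of each other.

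Among the treated groups, DOPA/HFS was set against DOPA and against HFS, which asks what each treatment added to the other. By limma 0 of 7 members were called in either, beside 0% of all genes in both, with 775 and 498 genes at an unadjusted p under 0.05. None of the 6 complete members had groups without overlap in either comparison, beside 9.42% of all genes against DOPA and 6.37% against HFS. Against DOPA, where Ptprc was not well above background, Trem2 differed by -0.10 (SE 0.16), and the members other than Trem2 and Ptprc lay between -0.08 and 0.10. In this comparison Tyrobp turned from 0.10 to -0.27 as the mean of its probes, and Cd68 from -0.08 to 0.41 with outlier spots kept. Against HFS, Aif1 differed by 0.22 (SE 0.22) and Cd68, with 2 DOPA/HFS arrays that both lay above the 3 HFS arrays, by 0.18 (SE 0.22), or 0.66 with outlier spots kept, and the others lay between -0.09 and 0.10. The interaction, which is the effect of stimulation with L-DOPA minus that without, was called for 0 of 7 members, beside 0% of all genes, with 406 at an unadjusted p under 0.05. Its estimate was -0.32 (SE 0.42) for Csf1r, 0.26 (SE 0.31) for Aif1, 0.23 (SE 0.21) for Tyrobp, 0.17 (SE 0.29) for Cd68, 0.10 (SE 0.23) for Trem2 and 0.00 (SE 0.29) for Cx3cr1, and none is given for Ptprc. Without 6-OHDA 2 it was -0.04 for Csf1r, 0.21 for Aif1, 0.13 for Tyrobp, 0.03 for Cd68, -0.02 for Trem2 and 0.24 for Cx3cr1. It was -0.15 for Tyrobp as the mean of its probes, -0.07 for Trem2 in the deposited table and 0.66 for Cd68 with outlier spots kept. All adjusted p-values of the 7 members, over all 6 contrasts, lay between 0.998 and 1. The standard errors of 0.15 to 0.29 for the pairs of groups, with 3 arrays each, set the size of difference that could be seen.

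The members did not vary as a block between rats. By slide, Trem2, Tyrobp, Aif1 and Cd68 had their highest mean on slide 2, and Cx3cr1, Csf1r and Ptprc their lowest. Over 21 pairs of members the median Pearson r was -0.25, with 9 pairs positive and 12 negative; the 6 pairs with Ptprc read a signal near background. After adjustment over the 21 pairs, 2 had an adjusted p under 0.05, 1 of each sign. Csf1r and Trem2 ran in opposite directions, with r = -0.85 (permutation p = 5e-04, adjusted p = 0.0105) and rho = -0.71 (permutation p = 0.0129, adjusted p = 0.135). Without the 2 arrays farthest from the median of Csf1r, 6-OHDA 2 and HFS 1, r was -0.67, and after group and slide means were removed it was -0.91. Without 6-OHDA 2 alone r was -0.71 and no longer passed (adjusted p = 0.158). Cx3cr1 and Csf1r, the fractalkine and growth factor receptors, ran together, with r = 0.79 (permutation p = 0.00317, adjusted p = 0.0333) and rho = 0.62 (permutation p = 0.0378, adjusted p = 0.233). Their r was 0.48 without 6-OHDA 2 and DOPA/HFS 1, so the call rests on those arrays, and 0.82 after group and slide means were removed.

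Another 2 pairs stood just past that threshold. Tyrobp and Cd68 ran together over 11 arrays with r = 0.74 (permutation p = 0.00771, adjusted p = 0.0501) and rho = 0.63 (permutation p = 0.0443, adjusted p = 0.233). Without 6-OHDA 2 and DOPA 1 their r was 0.57, and after group and slide means were removed 0.89. Csf1r and Aif1 ran in opposite directions with r = -0.71 (permutation p = 0.00954, adjusted p = 0.0501) and rho = -0.76 (permutation p = 0.006, adjusted p = 0.126). Here leaving out 6-OHDA 2 and HFS 1 gave -0.85, and removing group and slide means -0.74. Cx3cr1 and Trem2 had r = -0.69 (permutation p = 0.0187, adjusted p = 0.0785) and rho = -0.36 (permutation p = 0.256, adjusted p = 0.597), and r = 0.03 without 6-OHDA 2 and DOPA/HFS 1, so that relation rests on those arrays. The receptor Trem2 and its adaptor Tyrobp had r = 0.57 (permutation p = 0.0572, adjusted p = 0.17) and rho = 0.45 (permutation p = 0.142, adjusted p = 0.497), with r = 0.57 without 6-OHDA 2 and DOPA/HFS 1 but 0.24 (adjusted p = 0.733) without 6-OHDA 2 alone. Without 6-OHDA 2, 0 of the 21 pairs had an adjusted p under 0.05, and the lowest was 0.0869.

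**Figure D2:**
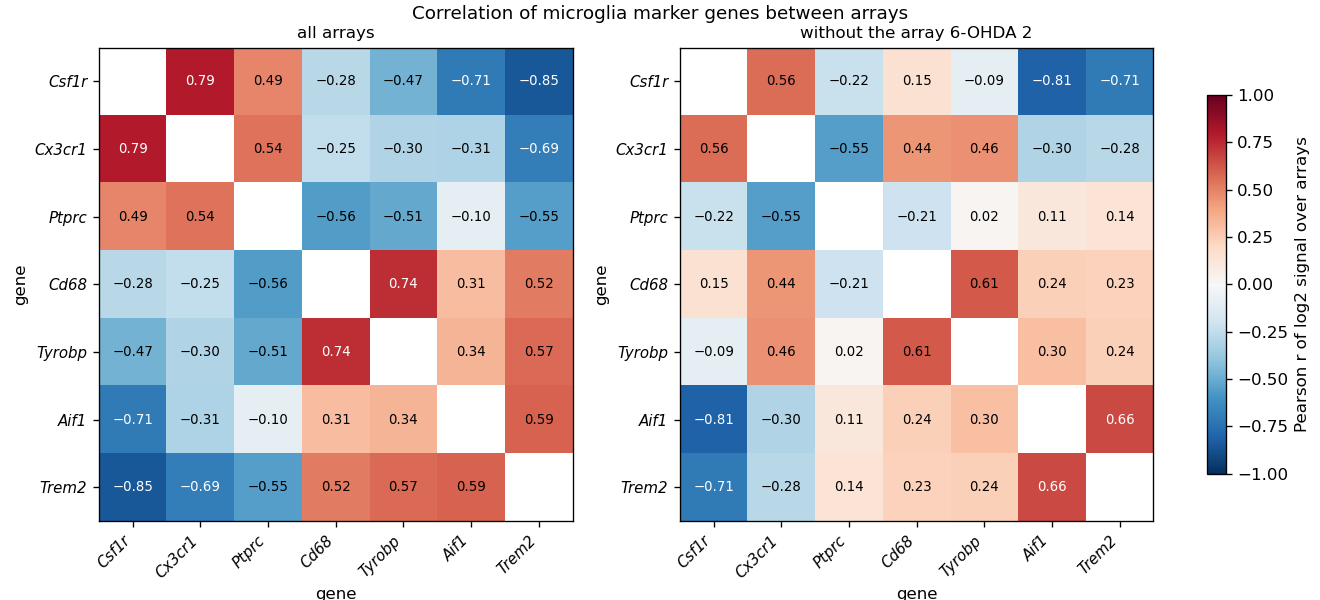
Pearson r of the log2 signal between each pair of the 7 microglia marker genes (rows and columns), over all 12 arrays on the left (11 for pairs with Cd68) and without the array 6-OHDA 2 on the right; red is positive and blue negative. Csf1r and Trem2 stand at -0.85 on the left and -0.71 on the right, Csf1r and Aif1 at -0.71 and -0.81, and Tyrobp and Cd68 at 0.74 and 0.61.

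Csf1r and Trem2 also followed the main axis of variation of all genes, as many genes did: 25.1% of 18345 genes had an r over 0.5 with it and 24.5% an r under -0.5. With the first principal component, over 12 arrays, Trem2 had r = -0.89 (permutation p = 0.00024, adjusted over 21 relations 0.00504) and rho = -0.86 (permutation p = 0.00086), and r = -0.70 without 6-OHDA 2 and DOPA/HFS 1. Csf1r had r = 0.83 (permutation p = 0.00091, adjusted p = 0.00955) and rho = 0.88 (permutation p = 0.00026), and r = 0.62 without those arrays. For the 5 others the adjusted p was 0.0517 or higher. These members contribute to a component that 18351 genes make up, and 20.4% of the other genes had an r over 0.5 with Csf1r and 23.1% an r under -0.5. For Trem2 the shares were 23% and 20.6%. With the log2 75th percentile of the signal before normalization, Csf1r had r = 0.69 (permutation p = 0.0123, adjusted p = 0.0517) and rho = 0.64 (permutation p = 0.0272), and r = 0.60 without 6-OHDA 2 and DOPA/HFS 3. Trem2 had r = -0.63 with it (permutation p = 0.0273, adjusted p = 0.0819) and rho = -0.45 (permutation p = 0.148), and r = -0.34 without those arrays. With the share of spots well above background, Csf1r had r = 0.07 (permutation p = 0.828, adjusted p = 0.891) and rho = 0.20 (permutation p = 0.529), and r = 0.70 without DOPA 3 and 6-OHDA 3. Trem2 had r = -0.18 with that share (permutation p = 0.577, adjusted p = 0.713) and rho = -0.29 (permutation p = 0.366), and r = -0.76 without those arrays. The part of these measures in the relations between members was not tested.

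A wider list of microglia genes, 37 in number and without the 7, had 31 on the array and 28 tested. None was called in any comparison, and the median log2 difference from 6-OHDA was -0.04, 0.01 and 0.08 in HFS, DOPA and DOPA/HFS, beside 0.01, -0.01 and -0.01 for all genes. Itgam had the largest differences of the list, 1.3, 1.47 and 1.84 (SE 1.02), with groups that overlapped in each comparison. It was well above background on 2 of 3 6-OHDA arrays. P2ry12, the ADP receptor that guides microglial processes, differed by 0.04, 0.12 and 0.01 (SE 0.27). The complement genes C1qa, C1qb and C1qc lay between -0.13 and 0.07. Groups without overlap were seen for Rgs10, a regulator of G protein signalling, at -0.32 (SE 0.18) in DOPA, and for the phosphatase gene Ptpn6 at 0.09 (SE 0.13) in DOPA/HFS. They were 1 of 27 complete genes lower in DOPA and 1 of 23 higher in DOPA/HFS, beside 3.11% and 1.74% of all genes. Over the 23 of these genes complete on the 12 arrays, the median r with Csf1r was 0.00, beside -0.03 for all genes. Of the 23, 5 had an r over 0.5 with Csf1r and 4 an r under -0.5. The median was 0.21 with Cx3cr1, 0.18 with Aif1, 0.13 with Ptprc, 0.05 with Cd68, and -0.02 with Trem2 and Tyrobp. For all genes these medians were -0.01, 0, 0.02, -0.07, -0.01 and -0.04. The summed intensity of the list lay between 76200, on DOPA/HFS 3, and 97300, on DOPA/HFS 2. In DOPA/HFS 23 of the 28 were complete, and Laptm5, the brightest gene on some arrays, was not. Sums there can thus lack genes whose spots were outliers.

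Of 10 myeloid transcription factors listed, 7 were on the array and 6 were tested; Spi1, the gene of PU.1, did not pass the filter. Cebpb differed by -0.50 (SE 0.24) in DOPA without overlap and was not called (adjusted p = 1), and Runx1 differed by -0.25, 0.37 and 0.37 (SE 0.36) in HFS, DOPA and DOPA/HFS. Of 28 genes of microglial activation, 25 were on the array and 16 were tested, with medians of 0.01, -0.14 and 0.12. Lgals3, the lectin galectin-3 of phagocytes, read 8.19, 9.18 and 7.86 in 6-OHDA against 9.95, 9.65 and 10.27 in DOPA. The difference of 1.55 (SE 0.48) without overlap did not pass the test across all genes (adjusted p = 1). Lgals3 was 1 of 16 activation genes higher without overlap in DOPA, beside 3.15% of all genes. Cebpb was 1 of 6 transcription factors lower, beside 3.11%. Tnf, Il6, Nos2, Ccl2, Ccl3, Ccl4, Cybb, Cd86 and Cst7 did not pass the filter.

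The genes of MHC class II, which present antigen on activated microglia and other myeloid cells, had 7 on the array of 8 listed and 5 tested. Their median log2 difference from 6-OHDA was 0.63, 0.49 and 0.62 in HFS, DOPA and DOPA/HFS, beside 0.01, -0.01 and -0.01 for all genes, and none was called by limma, with 3, 2 and 3 of the 5 at an unadjusted p under 0.05. Higher without overlap were 2 of 5 in HFS, 3 of 5 in DOPA and 2 of the 3 complete in DOPA/HFS, beside 2.79%, 3.15% and 1.74% of all genes. Cd74, the invariant chain, read 5.99, 5.83 and 6.82 in 6-OHDA, 8.27, 6.53 and 7.55 in HFS, 7.27, 7.68 and 7.83 in DOPA, and 8.64, 8.39 and 7.47 in DOPA/HFS. The DOPA and the DOPA/HFS arrays all lie above the 3 6-OHDA arrays, with differences of 1.38 and 1.96 (SE 0.44, adjusted p = 1 in both), while HFS 2 falls within them. RT1-Da was well above background on 1 of 3 6-OHDA arrays and on all 9 others, and its signal was at least 1.72-fold, 2.12-fold and 2.24-fold higher in HFS, DOPA and DOPA/HFS, without overlap in any of the 3. RT1-Db1 differed by 0.63 (SE 0.19) in HFS and RT1-Bb by 0.49 (SE 0.23) in DOPA, again without overlap. RT1-Bb was well above background on 2 of 3 6-OHDA arrays, so its value is in part read against background. The MHC class II transactivator Ciita did not pass the filter. The summed choroid plexus intensity was 3660, 3640 and 6370 on 6-OHDA 1 to 3. It was 96400, 10100 and 57300 on HFS 1 to 3, and 3720, 5500 and 20600 on DOPA 1 to 3. On DOPA/HFS 1 to 3, where Cd74 read 8.64, 8.39 and 7.47, that sum was 5760, 4640 and 4140. Within groups of 3 arrays the sum and Cd74 had the same order, but across groups they did not. DOPA/HFS 1 had the highest Cd74, with a sum below those of all HFS arrays and of DOPA 3. Which cells carried the MHC class II RNA was not tested.

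Perivascular macrophages share Csf1r, Cx3cr1, Aif1, Cd68 and Tyrobp with microglia. Of 9 of their genes, 7 were on the array and 3 were tested, with medians of -0.18, -0.42 and 0.06 in HFS, DOPA and DOPA/HFS. Mrc1, the mannose receptor, read 7.25, 6.93 and 6.57 in 6-OHDA and 6.47, 6.32 and 5.90 in HFS, a difference of -0.69 (SE 0.38) without overlap that was not called (adjusted p = 0.998). It was 1 of the 3 lower without overlap in HFS, beside 2.33% of all genes. Cd163, Siglec1, Ms4a7 and F13a1 did not pass the filter. Erythroid genes, a sign of blood left in the tissue, had 4 tested, with medians of -0.11, -0.17 and 0.09.

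Other cell types were read from the medians of their lists, beside 0.01, -0.01 and -0.01 for all genes. Astrocytes, 9 genes tested, had medians of 0.14, 0.13 and 0.14 in HFS, DOPA and DOPA/HFS. Glul, glutamine synthetase, was higher without overlap in HFS by 0.45 (SE 0.24), and the glutamate transporter gene Slc1a2 by 0.14 in HFS and 0.27 in DOPA (SE 0.14). Oligodendrocytes, 10 tested, had medians of 0.04, -0.08 and 0.01, with Opalin at -0.33 (SE 0.15) in DOPA. Endothelium, 10 tested, had -0.06, 0.16 and 0.02, with the tight junction gene Cldn5 at 0.27 (SE 0.16) in DOPA. Leptomeninges, 6 tested, had 0.12, 0.09 and 0.30, with Ogn at 0.54 (SE 0.53) in HFS and Col1a2 at -0.30 (SE 0.38) in DOPA. Cortex, 3 tested, had 0.38, 0.26 and 0.16, with Rorb at 0.29 (SE 0.19) in HFS, and striatal projection neurons, 10 tested, had -0.03, 0.08 and -0.03, with the adenosine receptor gene Adora2a at -0.23 (SE 0.14) in DOPA. The genes named from these lists are those whose groups did not overlap, beside 2.79% of all genes higher and 2.33% lower in HFS and 3.15% higher and 3.11% lower in DOPA, and none was called. Across the 18 lists, 223 genes were listed, 148 tested and 0 called.

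Each member was scaled over the 12 arrays, or 11 for Cd68, and the 7 were averaged, without Cd68 on DOPA/HFS 3. Ptprc, well above background on 5 of 12 arrays, counted as much as the others. All other genes were ranked by Pearson r with that mean. The members themselves had an r with it of 0.62 (Cd68), 0.57 (Tyrobp), 0.47 (Aif1), 0.34 (Cx3cr1), 0.23 (Trem2), 0.16 (Ptprc) and 0.00 (Csf1r), so the mean stands for no single member. The mean was highest on DOPA 2, 0.75, and lowest on DOPA 1, -0.66. The 10 genes most like it over 12 arrays were RGD1564397 (r = 0.88), Cdk9 (0.85), Pigx (0.84), Snx11 (0.82), LOC316794 (0.82), Ptpn6 (0.82) and Fcgr1 (0.79), with 3 more that the array names only by a sequence record (0.83, 0.81 and 0.79). Ptpn6 encodes SHP-1, a phosphatase of blood cells, and Fcgr1 a receptor for immunoglobulin G. Without the 2 arrays farthest from the median, r of the 10 lay between 0.08 and 0.75, with 0.45 for RGD1564397, 0.66 for Cdk9, 0.67 for Ptpn6 and 0.39 for Fcgr1. Among all genes 2.88% had an r over 0.5 with the mean.

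The promoters of the members were searched for letters of the core that the myeloid factor PU.1 is known to bind. The RefSeq table for rat build GRCr8 held promoters of 5 of the 7, Cx3cr1, Csf1r, Trem2, Ptprc and Cd68, and had no entry for Tyrobp and Aif1. In windows of 300 bases, on both strands, GAGGAA was found in Csf1r, Trem2, Ptprc and Cd68, and in 27.6% of 33469 promoters. GGAAGT, which shares the letters GGAA with it, was found in Cx3cr1, Ptprc and Cd68, and in 22.6%. Either one was found in 5 of 5 members and in 42.3% of all. Cx3cr1 and Csf1r, which ran together between arrays, shared neither. The matches are letters only, and binding was not analysed here. The part of the window before the gene is printed for Trem2, whose signal ran opposite to Csf1r, for Cd68, which did not overlap between HFS and 6-OHDA, and for Ptprc, 5′ to 3′ on the gene's strand, the minus strand for all 3, with matches to either motif, on either strand, in capitals. They lie at chr9:20151798-20152029, chr10:54882442-54882691 and chr13:52259811-52259996 and are 232, 250 and 186 bases long.
Trem2: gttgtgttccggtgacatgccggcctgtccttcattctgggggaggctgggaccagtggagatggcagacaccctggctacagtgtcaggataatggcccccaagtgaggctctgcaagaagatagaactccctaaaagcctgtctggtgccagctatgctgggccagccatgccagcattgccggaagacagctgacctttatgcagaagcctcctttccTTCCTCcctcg
Cd68: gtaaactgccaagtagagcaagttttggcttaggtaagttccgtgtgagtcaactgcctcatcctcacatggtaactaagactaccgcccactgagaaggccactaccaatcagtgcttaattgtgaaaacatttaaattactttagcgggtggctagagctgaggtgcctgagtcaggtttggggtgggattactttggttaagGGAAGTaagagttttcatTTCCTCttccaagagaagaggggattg
Ptprc: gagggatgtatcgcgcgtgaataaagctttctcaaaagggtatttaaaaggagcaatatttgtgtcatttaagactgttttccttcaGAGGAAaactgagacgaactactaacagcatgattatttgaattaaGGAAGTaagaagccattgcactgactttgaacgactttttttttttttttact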

How the data were processed

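The deposited scanner files hold 1 Cy3 channel of Agilent 4x44K rat arrays, quantified by the authors with Feature Extraction 9.1. Per the file headers, the processed signal is an intensity after background subtraction and detrending within the array. The deposited series table holds log2 values that the authors quantile normalized, and it was used as an alternative. Here the processed signal was put on the log2 scale, outlier spots were left out, non-control spots were quantile normalized between the 12 arrays, and the 41012 probes were kept where well above background on at least 40% of arrays (24318 probes). The brightest kept probe stood for its gene. R 4.3.3 with limma 3.58.1 fitted the 4 groups, with p-values adjusted by Benjamini and Hochberg over all 20462 genes, and called a gene at adjusted p under 0.1 with a fold over 1.2 or under 0.8. Single values were compared by exact two-sided permutation of arrays, and correlations by two-sided permutation with 100000 resamples. The number of arrays limits the precision.

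Named were all members, list genes called, from each list and comparison with 6-OHDA the 2 largest differences among genes whose groups did not overlap, and the 10 genes most like the members' mean. Genes named beyond this rule were chosen after their values were seen. The members and lists were chosen with earlier results of these data known. To check pairing by slide, arrays were correlated after group means were removed: 18 pairs on the same slide had a median r of 0.11 and 36 other pairs -0.07. Of these, 10 and 8 had an r over 0.1. On slide 2 all pairs were positive, with r from 0.07 to 0.43. Slide was a block only in an alternative, so differences between slides stay in the main fit. Accessions on the array matched RefSeq for 10735 of 24824. The steps were tested on simulated data.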

Additional observations from a re-analysis of the deposited data

Results flagged for a closer look

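The Ptprc probe A_44_P414258 gave a signal in data that no comparison above uses, since it failed the filter on background. Its log2 signal was 4.67 on HFS 3 and 4.51 on DOPA/HFS 1, well above background on those 2 arrays and on no 6-OHDA array, where the highest value was 3.94. It also read 4.67 on DOPA 1 and 4.34 on HFS 1, neither well above background there, and 3.29 on HFS 2. The cause was not tested.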

How the results depend on the processing

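In each of the 5 pairs of groups, 0 of the members were called under any of 24 alternatives, and in the interaction under any of 23. The lowest adjusted p of a member was 0.549 for HFS, 0.956 for DOPA and 0.729 for DOPA/HFS against 6-OHDA, 0.851 and 0.885 for DOPA/HFS against DOPA and HFS, and 0.992 for the interaction. Of 995 fold changes of members under alternatives, 923 kept their sign, 72 changed it and 29 moved by over 1 SD. The fitted Ptprc difference from 6-OHDA is read against arrays not well above background, so its size is not given. Ptprc passed the filter only through HFS and DOPA/HFS arrays, and the alternatives use the same arrays. A kept sign of its difference is thus no support for a change. In DOPA/HFS the sign changed with the deposited table. Among the settings that moved the fitted Ptprc difference by over 1 SD in both HFS and DOPA/HFS were the deposited table and leaving out 6-OHDA 2. Tyrobp in DOPA was 0.10 as the mean of its probes; Cd68 in DOPA/HFS was 0.41 with outlier spots kept. The count of 2 correlated pairs became 6 under 75th percentile scaling. With each array left out in turn, an alternative chosen after seeing the data, it lay between 0 and 4, lowest without 6-OHDA 2, and it was 0 without 6-OHDA 2 and DOPA 2. The cause was not tested. A filter on all 12 arrays well above background left Ptprc untested, whose signal lies near the background.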
